A study of Homo sapiens with 18 samples.

Results

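CDK10 encodes a cyclin-dependent kinase, and its splicing was followed here through 27 introns that have a splice site of the gene, out of 233650 introns in the deposited table. They were chosen by position, as all rows between bases 89680737 and 89696354 of chromosome 16 (build hg38, plus strand) with a start or an end at an annotated splice site of CDK10 (ENSG00000185324.22). The other 8 introns of the table within these bounds used no CDK10 splice site and were left out. The 27 introns fell into 5 of the table's 51819 clusters, a cluster being a set of introns linked by shared splice sites. For each intron and library the table gives the percent spliced in (PSI), which is the share of the cluster's spliced reads that support that intron, so the introns of 1 cluster add up to 100%. PSI holds neither the expression of the gene nor the retention of an intron, and the number of reads behind a value is unknown. Nor can PSI from bulk RNA tell a change in all cells from a change in some of them, or from a difference in how much RNA those cells hold.

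The study asked how the oncogene MYCN and the core spliceosome protein SNRPD3 together shape alternative splicing in neuroblastoma cells. All 18 libraries came from SHEP.tet21n, a human neuroblastoma cell line with a MYCN transgene that doxycycline (Dox) turns off. MYCN+ cells received the vehicle DMSO and MYCN- cells received Dox, given at 2 μg/mL every 72 h, and both were transfected with a control siRNA (SNRPD3+) or with either of a pair of SNRPD3 siRNAs (SNRPD3- #1 and SNRPD3- #2). This gave 6 groups of 3 libraries, namely MYCN-/SNRPD3+ (wildtype), MYCN-/SNRPD3- #1, MYCN-/SNRPD3- #2, MYCN+/SNRPD3+, MYCN+/SNRPD3- #1 and MYCN+/SNRPD3- #2. All cells carried the transgene and came from 1 engineered line, and since MYCN was changed only with Dox, an effect of MYCN and an effect of Dox cannot be told apart. Of the markers of neuroblastoma cell states, 5 of 6 mesenchymal genes (FN1, PRRX1, YAP1, WWTR1 and CD44) and 3 of 6 adrenergic genes (HAND2, GATA3 and ISL1) had clusters in the table. That says that they were spliced but not at what level. A gene without a cluster may still be spliced and expressed, so the counts do not assign a cell state. Within groups, the correlation of libraries over all introns was between 0.847 and 0.871.

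CDK10 is active as a kinase together with cyclin M (CCNQ) and is known to phosphorylate the transcription factor ETS2 and the kinase PKN2. Like other kinases it needs an HRD motif in the catalytic loop, a DFG motif that holds the magnesium ion of ATP and an APE motif at the end of the activation segment, while its own name-giving motif, PISSLRE, stands where cyclin-dependent kinases carry their cyclin-binding helix. Alternative splicing of the gene has long been known, and a transcript that loses the reading frame can be degraded by nonsense-mediated decay (NMD) when its stop codon lies well upstream of the last exon junction.

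The canonical transcript (ENST00000353379.12, GENCODE release 44) has 13 exons and encodes 360 residues. PISSLRE (residues 80 to 86) begins in exon 4, HRD (161 to 163) in exon 6, DFG (181 to 183) in exon 8 and APE (206 to 208) in exon 9. Of its 12 introns, 8 were in the table's clusters (introns 1, 2 and 7 to 12), and introns 3 to 6 were in none, so nothing is measured of the splicing between exons 3 and 7. In all, 21 of the 27 introns matched an annotated intron of 1 of the 22 annotated transcripts, of which 6 are protein coding, 6 are NMD transcripts, 8 are retained-intron transcripts and 2 have no defined coding sequence. The other 6 were unannotated: 2 joined a pair of annotated sites and 4 used 1 unannotated site. All 27 began with GT and ended with AG in the genome.

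**Figure D1:**
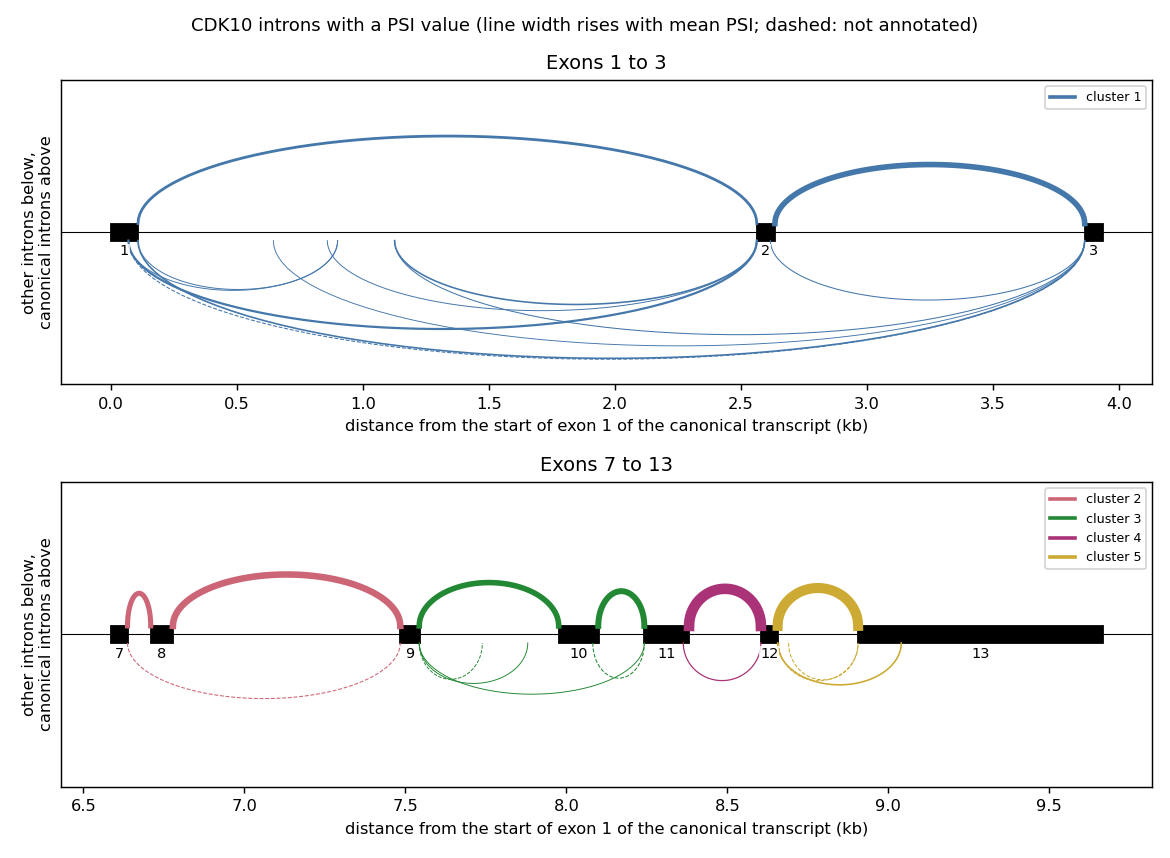
Map of the CDK10 introns, with distance from the start of canonical exon 1 in kb on the horizontal axis and numbered exons as black boxes to scale. The 8 canonical introns are drawn above the line and the other 19 below it, coloured by cluster, with line width rising with mean PSI over 18 libraries and dashed lines for the 6 unannotated introns, and the alternatives crowd around exons 1 to 3 while those further down are thin.

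The results below turn on exons 2 and 8, both of a length that is no multiple of 3, and on the short intron 7, so their reference sequences (hg38) are given with exon bases in capitals and intron bases in lower case. Exon 2 (73 bases, chr16:89689252-89689324) is shown with 15 intron bases on each side.

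Exon 2: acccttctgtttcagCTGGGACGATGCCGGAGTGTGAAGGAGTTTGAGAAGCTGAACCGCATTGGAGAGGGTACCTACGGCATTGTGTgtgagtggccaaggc

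Exon 8 (70 bases, chr16:89693398-89693467), which holds the DFG codons, is shown in the same way.

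Exon 8: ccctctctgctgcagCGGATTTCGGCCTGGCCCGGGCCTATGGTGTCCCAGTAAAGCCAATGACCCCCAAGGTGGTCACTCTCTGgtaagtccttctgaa

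Intron 7 (71 bases, chr16:89693327-89693397), the shortest of the 12 introns, is shown whole with 9 bases of exons 7 and 8.

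Intron 7: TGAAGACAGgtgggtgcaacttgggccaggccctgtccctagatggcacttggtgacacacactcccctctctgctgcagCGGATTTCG

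The donors that compete at the start of the gene are given with 9 exon and 12 intron bases, since much of the variety of the first cluster lies in which of them is used.

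Exon 1, canonical donor (last exon base 89686797): GAACACAGGgtgcgcggggtg

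Exon 1, donor 38 bases earlier (last exon base 89686759): AGTGTATTCgtaaggagggct

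Donor of the 227-base exon between exons 1 and 2 (last exon base 89687815): GCAGAGGATgtgagaagggga

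Cluster 1 held 12 introns from exon 1 to exon 3 and was the most varied cluster of the gene. Its main path ran from exon 1 to exon 2 and on to exon 3, but exon 1 had a pair of donors 38 bases apart, and either could join exon 2, exon 3 or an exon of 227 bases that lies between exons 1 and 2 (chr16:89687589-89687815). The intron from exon 2 to exon 3 (intron 2) had a mean PSI of 47.0%, that from exon 1 to exon 2 (intron 1) 18.7%, that from the earlier donor of exon 1 to exon 2 13.1%, that from exon 1 to exon 3 7.28%, and that from the 227-base exon to exon 2 6.96%.

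Intron 1 had PSI of 20.1%, 21.1% and 21.2% in wildtype cells, 21.9%, 19.7% and 15.02% in MYCN-/SNRPD3- #1, 17.6%, 16.9% and 17.998% in MYCN-/SNRPD3- #2, 20.02%, 19.2% and 19.3% in MYCN+/SNRPD3+, 20.2%, 18.03% and 14.8% in MYCN+/SNRPD3- #1, and 18.2%, 22.0% and 13.7% in MYCN+/SNRPD3- #2. Libraries with siControl stayed within 19.2% and 21.2%, while each of the 4 knockdown groups reached lower. Knockdown libraries also held the highest values, 21.9% in MYCN-/SNRPD3- #1 and 22.0% in MYCN+/SNRPD3- #2. In the same order of groups, the intron from the earlier donor to exon 2 had 14.8%, 14.4% and 14.4%, then 12.6%, 13.8% and 14.2%, then 15.1%, 14.1% and 11.9% with MYCN repressed, and 17.2%, 12.7% and 10.7%, then 13.6%, 12.8% and 10.97%, then 12.7%, 9.61% and 10.1% with MYCN expressed. Its highest value and its lowest were both in MYCN+ libraries. Taken as a share of all reads that leave exon 1, the earlier donor was used in 39.0% ± 3.10 (SD, n = 9) with MYCN repressed and 34.3% ± 5.11 (SD, n = 9) with MYCN expressed, and the groups overlapped (exact two-sided permutation test within siRNA, p = 0.044). Leaving out single libraries raised that p above 0.05 in 12 of 18 cases, to at most 0.0878.

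The earlier donor removes 38 coding bases and would shift the frame, with a stop after 26 residues, of which 16 are those of the canonical protein. The annotation also has this donor, joined to exon 2, in 2 protein coding transcripts, so the count holds for the canonical start codon only. Set between exons 1 and 2, the 227-base exon likewise would give a stop after 69 residues. That reading holds only where exon 1 is joined to this exon. The intron from it to exon 2 had PSI of 5.17%, 6.41% and 6.46% in wildtype cells, 6.49%, 6.31% and 8.48% in MYCN-/SNRPD3- #1 and 6.93%, 6.79% and 7.51% in MYCN-/SNRPD3- #2. In MYCN+ cells it had 5.75%, 8.89% and 6.87% under siControl, 8.56%, 9.44% and 6.18% with siRNA #1 and 6.05%, 5.44% and 7.54% with siRNA #2, so that the MYCN+ and MYCN- ranges overlapped. Reads into this exon were few, with 1.58% ± 0.729 (SD, n = 18) of the cluster, and reads out of it were more, with 8.38% ± 1.58 (SD, n = 18). The reads out exceeded the reads in by 4.29 to 9.99 points and did so in 18 of 18 libraries. What lies behind this imbalance was not tested.

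Intron 2 had PSI of 48.1%, 46.2% and 47.1% in wildtype cells, 48.0%, 47.3% and 51.4% in MYCN-/SNRPD3- #1 and 49.0%, 49.9% and 48.6% in MYCN-/SNRPD3- #2. With MYCN expressed it had 48.0%, 47.7% and 46.8% under siControl, 43.9%, 44.4% and 39.5% with siRNA #1 and 48.9%, 46.0% and 45.0% with siRNA #2. The MYCN+/SNRPD3- #1 libraries were thus the lowest 3 of all 18. A donor 18 bases earlier in exon 2, which keeps the frame and would give 354 residues, had between 0.991% and 2.14%, and its share of the reads that leave exon 2 was 2.93% both with MYCN expressed and with MYCN repressed.

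Exon 2 was skipped by introns that run from exon 1, from its earlier donor or from the exons between straight to exon 3. The main one, from exon 1 to exon 3, had 5.74%, 5.85% and 5.48% in wildtype cells, 4.65%, 5.39% and 5.85% in MYCN-/SNRPD3- #1 and 5.31%, 4.39% and 7.09% in MYCN-/SNRPD3- #2. With MYCN expressed it had 3.62%, 6.61% and 8.49% under siControl, 7.78%, 6.97% and 17.8% with siRNA #1 and 6.41%, 9.66% and 13.9% with siRNA #2. The range of the MYCN+ libraries enclosed that of the MYCN- libraries, and the highest value in each of the 3 MYCN+ groups was that of replicate 3.

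As a share of transcripts across exon 2 (skipping reads against skipping reads plus the mean of reads into and out of exon 2), skipping was 15.8% ± 0.506 in wildtype cells, 15.01% ± 1.54 in MYCN-/SNRPD3- #1 and 16.2% ± 3.06 in MYCN-/SNRPD3- #2 (SD, n = 3 each). It was 16.5% ± 5.78 in MYCN+/SNRPD3+, 26.8% ± 10.6 in MYCN+/SNRPD3- #1 and 24.6% ± 7.82 in MYCN+/SNRPD3- #2 (SD, n = 3 each). The 6 libraries with both MYCN and an SNRPD3 siRNA had 17.6% to 39.0%, against 11.1% to 22.6% in the other 12, so that the sets overlapped. Over all libraries skipping was 6.96 points higher with MYCN expressed (22.6% ± 8.60 against 15.7% ± 1.81, SD, n = 9 each; exact two-sided permutation test within siRNA, p = 0.019). The difference within siRNA was 0.692 points under siControl, 11.8 points with siRNA #1 and 8.42 points with siRNA #2. This difference leaned on the replicate 3 libraries, as it was 3.36 points (exact permutation p = 0.111) when replicate 3 of every group was left out, an alternative chosen after seeing the data. Single libraries moved it less, from 4.92 points without MYCN+/SNRPD3- #1 replicate 3 to 8.13 points without MYCN+/SNRPD3- #1 replicate 1. Reads out of exon 2 took 48.4% ± 2.75 of the cluster and reads into it 39.4% ± 3.29 (SD, n = 18). The former were higher in 18 of 18 libraries. The share thus averages unequal sides and only approximates a share of transcripts.

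Knockdown of SNRPD3 with MYCN expressed gave 9.21 points more skipping of exon 2 (exact permutation test of 6 against 3 libraries, p = 0.131), and with MYCN repressed the difference was -0.183 points (exact permutation p = 0.94). The smallest p that this design of 6 against 3 can give is 0.0119. The difference between these effects was not tested on the share itself. For the main skipping intron alone, from exon 1 to exon 3, the interaction was 0.77 on the log2 odds scale (SE 0.47, limma adjusted p = 1). A transcript without exon 2 would have a stop after 42 residues, 29 of them shared with the canonical protein, and that stop would stand 783 bases before the last junction, ahead of PISSLRE and of all the kinase motifs. The annotation also has the join of exon 1 to exon 3 in 1 protein coding transcript, so this reading holds for the canonical start codon only.

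**Figure D2:**
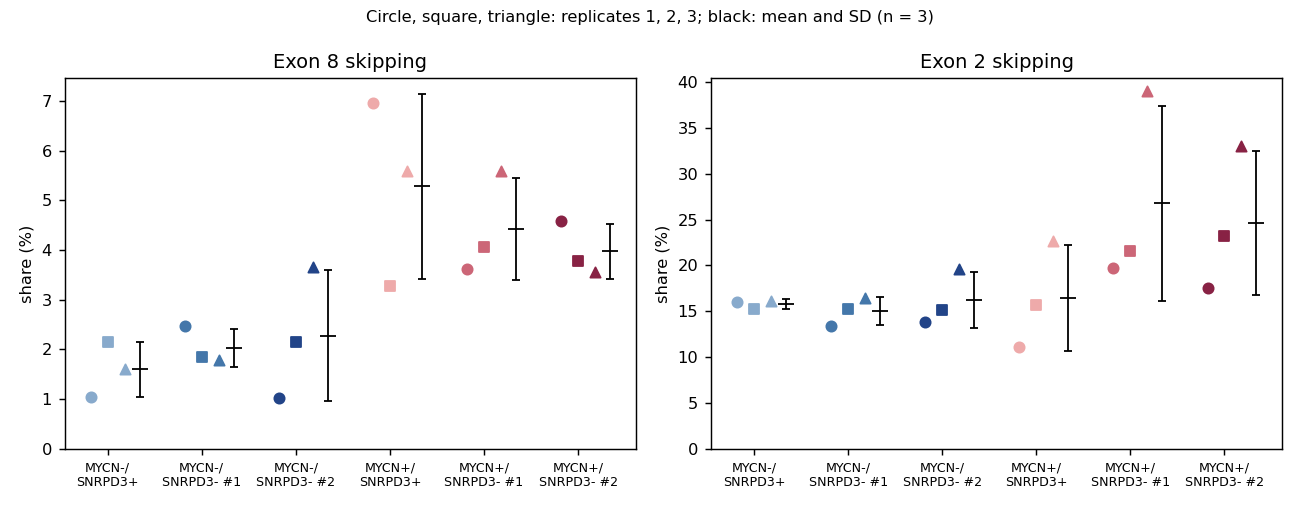
Skipping share of exon 8 (left) and exon 2 (right) of CDK10, in percent, in each of the 18 libraries by group. Replicates 1, 2 and 3 are circles, squares and triangles, and the mean and SD of 3 libraries are in black. Exon 8 skipping was 3.28% to 6.97% in the MYCN+ libraries and 1.01% to 3.65% in the MYCN- libraries, whereas for exon 2 the spread within MYCN+ groups was wide and the highest value of each was replicate 3.

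Cluster 2 spanned exons 7 to 9 and held introns 7 and 8 and a direct join of exon 7 to exon 9, which no annotated transcript has. That skipping intron was higher in MYCN-expressing cells and was the only 1 of 19 tested CDK10 introns to pass the threshold in any comparison. It had PSI of 3.61%, 1.67% and 2.88% in MYCN+/SNRPD3+, 1.85%, 2.07% and 2.87% in MYCN+/SNRPD3- #1 and 2.35%, 1.93% and 1.81% in MYCN+/SNRPD3- #2. With MYCN repressed it had 0.525%, 1.09% and 0.805% in wildtype cells, 1.26%, 0.931% and 0.904% with siRNA #1 and 0.510%, 1.09% and 1.86% with siRNA #2. The highest MYCN- value, in MYCN-/SNRPD3- #2 replicate 3, was above the lowest 3 MYCN+ values, and the other 8 MYCN- libraries were below all 9 MYCN+ libraries.

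Over all libraries the exon 7 to exon 9 intron rose with MYCN by 0.76 on the log2 odds scale (SE 0.15), or 1.34 points of PSI (limma with Benjamini-Hochberg adjustment, adjusted p = 0.0215). In this comparison 1.23% of the 152722 tested introns were called, against 1 of 19 in CDK10. The log2 odds are log2((PSI + 0.01)/(1 - PSI + 0.01)), so the offset lessens the change of an intron this low, and the adjusted p ranged from 0.0128 to 0.049 as single libraries were left out. On PSI without the log scale the adjusted p was 0.133, which is above the threshold. The number of reads behind this intron's PSI of 0.510% to 3.61% is unknown.

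As a share of transcripts across exon 8, skipping was 4.56% ± 1.24 with MYCN expressed and 1.97% ± 0.80 with MYCN repressed (SD, n = 9 each), a difference of 2.59 points (exact two-sided permutation test within siRNA, p = 0.0005, where the smallest possible is 0.00025). This share is made of the same reads as the intron and is no separate evidence. Like that of exon 2, it averages unequal sides and only approximates a share of transcripts. The difference was 3.69 points under siControl, 2.39 points with siRNA #1 and 1.70 points with siRNA #2, and it was 2.60 points without the replicate 3 libraries of every group (exact permutation p = 0.00926). For the knockdown the share was 3.18% ± 1.33 (SD, n = 12) against 3.44% ± 2.36 (SD, n = 6) with siControl, a difference of -0.264 points (exact permutation p = 0.633). A transcript without exon 8 would lack the DFG codons, and its frame would run to a stop after 226 residues, 179 of them canonical, that stands 234 bases before the last junction.

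The introns on either side of exon 8 did not carry equal shares. Intron 7 had PSI of 44.8%, 42.2% and 50.5% in wildtype cells, 40.1%, 42.7% and 48.2% in MYCN-/SNRPD3- #1 and 36.5%, 40.1% and 43.96% in MYCN-/SNRPD3- #2. With MYCN expressed it had 46.0%, 42.6% and 39.1% under siControl, 42.8%, 41.3% and 32.5% with siRNA #1 and 39.1%, 44.8% and 35.8% with siRNA #2. The replicate 3 library was the highest of its group in each of the 3 MYCN- groups and the lowest of its group in each of the 3 MYCN+ groups, a pattern seen in the data and not tested. Intron 8 mirrored these values, with 54.7%, 56.7% and 48.7% in wildtype cells, 58.6%, 56.3% and 50.9% in MYCN-/SNRPD3- #1 and 63.0%, 58.8% and 54.2% in MYCN-/SNRPD3- #2. With MYCN expressed it had 50.4%, 55.7% and 58.0%, then 55.4%, 56.7% and 64.6%, then 58.5%, 53.3% and 62.4%.

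Intron 8 was above intron 7 in 17 of 18 libraries, by 14.6 points on average (SD 8.62, n = 18). A transcript spliced at both ends of exon 8 would add the same to both. Differences in the same direction were seen elsewhere in the gene. Reads out of exon 2 exceeded reads into it by 8.99 points on average, in 18 of 18 libraries. For the exon between exons 1 and 2 this was 6.80 points, also in 18 of 18. Intron 10 was above intron 9 by 3.88 points on average, in 12 of 18. In the annotation, 1 retained-intron transcript keeps intron 7 within an exon of 194 bases (chr16:89693274-89693467) that joins exon 9 as intron 8 does. Retention itself was not measured, and the cause of the difference between introns 7 and 8 was not tested. A transcript that keeps intron 7 would reach a stop after 194 residues, 179 of them canonical. Intron 7 made up 41.3% ± 4.29 (SD, n = 12) of introns 7 and 8 together after knockdown and 45.0% ± 3.83 (SD, n = 6) with siControl (exact two-sided permutation test within MYCN status, p = 0.0968), and it made up 41.4% ± 4.44 with MYCN expressed and 43.7% ± 4.31 with MYCN repressed (SD, n = 9 each; p = 0.273 by the exact permutation test). This ratio was added after the data had been seen, and neither difference passed 0.05.

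**Figure D3:**
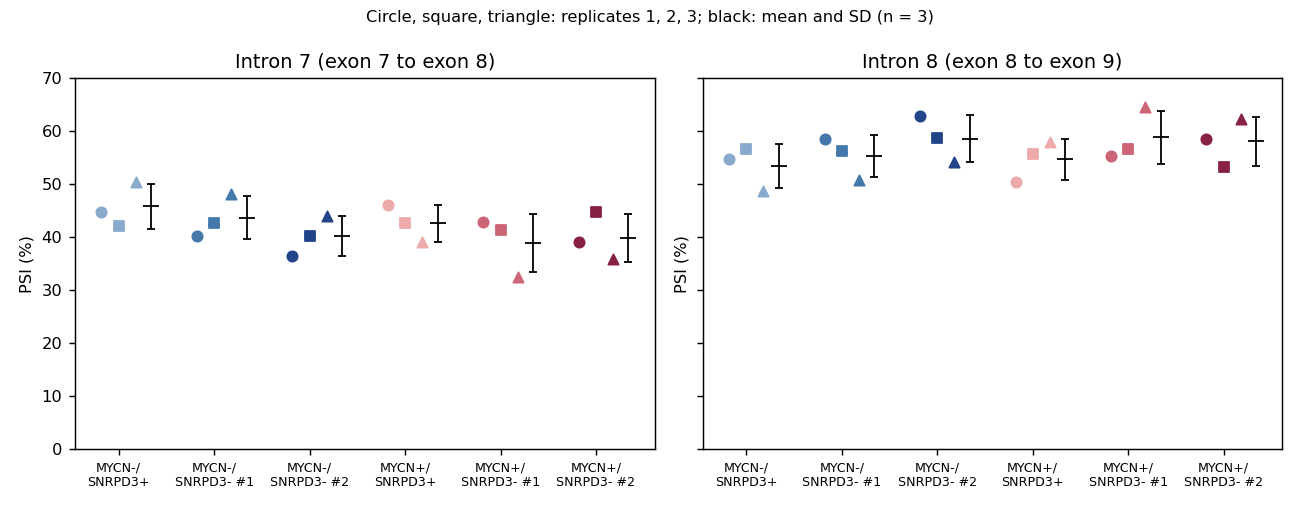
PSI in percent of intron 7 (left) and intron 8 (right) of CDK10 in each library, by group, with replicates 1, 2 and 3 as circles, squares and triangles and the mean and SD of 3 libraries in black. Intron 7 ran from 32.5% to 50.5% and intron 8 from 48.7% to 64.6%, and replicate 3 took opposite places in MYCN- and MYCN+ groups.

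Clusters 3, 4 and 5 covered exons 9 to 13, the later part of the C-terminal lobe of the kinase and the tail, and the canonical introns carried most of their reads. In cluster 3, intron 9 had 48.8%, 46.0% and 48.0% in wildtype cells, 50.9%, 45.7% and 40.1% in MYCN-/SNRPD3- #1, 45.8%, 43.0% and 48.4% in MYCN-/SNRPD3- #2, 44.4%, 46.9% and 49.4% in MYCN+/SNRPD3+, 47.8%, 49.97% and 41.5% in MYCN+/SNRPD3- #1 and 51.3%, 49.0% and 43.1% in MYCN+/SNRPD3- #2. All 6 groups overlapped. Intron 10, which has the highest GC content of the 12 introns (80.3%), had 48.3%, 51.5% and 49.9%, then 45.8%, 51.7% and 56.2%, then 49.8%, 53.6% and 51.2% in the MYCN- groups in the same order, and 51.8%, 50.05% and 48.4%, then 48.2%, 47.4% and 55.8%, then 47.2%, 49.0% and 54.1% in the MYCN+ groups. It was above intron 9 in 12 of 18 libraries, by 3.88 points on average (SD 6.11, n = 18).

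The other 4 introns of cluster 3 were rare. An unannotated donor 17 bases before the end of exon 10 had a mean of 1.37% and ranged from 0.00987% to 2.93%, and its use would shift the frame. Acceptors 237 and 96 bases before exon 10 had means of 0.497% and 0.393%, of which the nearer keeps the frame and would give 392 residues, while the other is unannotated and would meet a stop after 261 residues. The join of exon 9 to exon 11, known from 1 annotated NMD transcript, had a mean of 0.50% and reached 2.10% in MYCN+/SNRPD3+ replicate 1. The lowest value of each of these 4 introns was between 0.0062% and 0.00987%. Without read counts it cannot be told whether values this low stand for any read.

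Cluster 4 held a pair of donors of exon 11, and the canonical one had a mean PSI of 96.6% (95.05% to 98.6%). The donor 18 bases earlier, which keeps the frame and would give 354 residues, had 3.21%, 4.84% and 2.93% in wildtype cells, 4.91%, 4.90% and 4.94% in MYCN-/SNRPD3- #1 and 3.68%, 4.52% and 1.45% in MYCN-/SNRPD3- #2. With MYCN expressed it had 1.93%, 2.17% and 2.70% under siControl, 2.86%, 2.49% and 4.95% with siRNA #1 and 3.46%, 2.62% and 3.27% with siRNA #2. The MYCN+ mean was 2.94% ± 0.895 and the MYCN- mean 3.93% ± 1.22 (SD, n = 9 each), with groups that overlapped (exact two-sided permutation test within siRNA, p = 0.048). That p was above 0.05 in 13 of 18 cases when single libraries were left out and 0.082 on the log2 odds scale, and limma gave an adjusted p of 0.511. Without replicate 3 of every group, chosen after seeing the data, the difference went from -0.992 to -1.76 points (exact permutation p = 0.00926).

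Cluster 5 joined exon 12 to the last exon. Intron 12 had 90.7%, 92.6% and 87.5% in wildtype cells, 92.1%, 93.2% and 92.2% in MYCN-/SNRPD3- #1 and 89.4%, 90.1% and 92.3% in MYCN-/SNRPD3- #2. With MYCN expressed it had 90.6%, 93.4% and 90.9%, then 89.7%, 94.3% and 91.5%, then 91.3%, 91.7% and 90.0%. An annotated acceptor 134 bases further into exon 13 had 8.11%, 6.25% and 12.4% in wildtype cells, 6.40%, 4.91% and 7.72% in MYCN-/SNRPD3- #1, 7.16%, 7.46% and 4.89% in MYCN-/SNRPD3- #2, 9.40%, 5.01% and 7.29% in MYCN+/SNRPD3+, 10.3%, 4.90% and 3.61% in MYCN+/SNRPD3- #1 and 7.25%, 8.23% and 7.38% in MYCN+/SNRPD3- #2. The spread among libraries of 1 group was as wide as that among groups. This acceptor would replace the last residues and give 343 in all, with 328 canonical ones, and its stop would lie past the last junction. Unannotated donors 4 and 34 bases past exon 12 had means of 0.111% and 1.43%, and the latter reached 4.56% in MYCN+/SNRPD3- #1 replicate 3. The former had a median of 0.00973% and reached 0.617%.

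Across the gene, 14 single changes to the canonical transcript follow from the introns seen and from keeping intron 7. Of these, 3 kept the frame to the normal end (the earlier donors of exons 2 and 11 and the nearer upstream acceptor of exon 10), and 8 placed the stop more than 50 bases before the last junction, at distances from 59 to 1002 bases. These are readings of each change alone, since short reads do not show which changes occur on 1 molecule. They start from the canonical start codon, although the annotation has some of these joins in protein coding transcripts. Introns outside the canonical transcript took 10.5% ± 1.21 of the reads with MYCN expressed and 9.83% ± 0.493 with MYCN repressed, as a mean over the 5 clusters (SD, n = 9 each; exact two-sided permutation test within siRNA, p = 0.148). Introns absent from the annotation took 1.48% ± 0.451 and 1.23% ± 0.287 (SD, n = 9 each; p = 0.191 by the exact permutation test).

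Of the 14 planned shares, 4 had p under 0.05 between MYCN+ and MYCN- libraries (skipping of exons 2 and 8 and the earlier donors of exons 1 and 11), and none of 14 did for the SNRPD3 knockdown over all libraries, for the knockdown with MYCN repressed or for the knockdown with MYCN expressed. These were 56 tests of shares chosen with earlier results of these data known, and their p-values are unadjusted.

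By limma on single introns, comparison by comparison, the CDK10 introns were mostly uncalled, and so were introns at large. Of the 27 members, 19 had a mean PSI between 1% and 99% and were tested, and the other 8 had means under 1%. MYCN+/SNRPD3+ against wildtype called 0 of 19, where 0.0543% of all tested introns were called, and 1 of 19 had an unadjusted p under 0.05, where 6.19% of all introns did. That intron was exon 7 to exon 9, with a difference of 1.05 on the log2 odds scale (SE 0.25, limma adjusted p = 0.287). MYCN+/SNRPD3- #1 against wildtype called 0 of 19 (0.278% of all), with 3 of 19 at an unadjusted p under 0.05 (10.4% of all). These 3 were exon 7 to exon 9 at 0.87 (SE 0.25, limma adjusted p = 0.184), the 227-base exon to exon 3 at 0.76 (SE 0.31, adjusted p = 0.407) and intron 2 at -0.26 (SE 0.12, adjusted p = 0.471).

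MYCN+/SNRPD3- #2 against wildtype called 0 of 19 (0.11% of all), with 2 of 19 at an unadjusted p under 0.05 (9.19% of all). They were exon 7 to exon 9 at 0.77 (SE 0.25, limma adjusted p = 0.305) and the earlier donor of exon 1 to exon 2 at -0.46 (SE 0.19, adjusted p = 0.449). The 3 comparisons against wildtype share the same 3 wildtype libraries, so the place of exon 7 to exon 9 in all of them is not independent. Adding the SNRPD3 siRNAs to MYCN-expressing cells called 0 of 19 with siRNA #1 (0.0144% of all) and 0 of 19 with siRNA #2 (0.0164% of all). At an unadjusted p under 0.05 there were 1 of 19 with siRNA #1 (7.25% of all), which was intron 2 at -0.28 (SE 0.12, limma adjusted p = 0.632), and 0 of 19 with siRNA #2 (6.17% of all).

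In MYCN-repressed cells the siRNAs called 0 of 19 with siRNA #1 (0.0105% of all) and 0 of 19 with siRNA #2 (0.0151% of all), and at an unadjusted p under 0.05 limma gave 0 of 19 with each (4.54% and 4.69% of all). The knockdown over all libraries called 0 of 19 (0.0242% of all), and none of the 19 had an unadjusted p under 0.05 (7.8% of all). The interaction of knockdown and MYCN called 0 of 19 (0.0177% of all), again with 0 of 19 at an unadjusted p under 0.05 (3.98% of all). For MYCN over all libraries, 3 of 19 had an unadjusted p under 0.05 (11.7% of all), namely exon 7 to exon 9 as above, exon 1 to exon 3 at 0.57 (SE 0.22, limma adjusted p = 0.302) and intron 2 at -0.16 (SE 0.068, adjusted p = 0.368). The median size of the difference in this comparison was 0.154 in CDK10 and 0.232 over all introns.

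**Figure D4:**
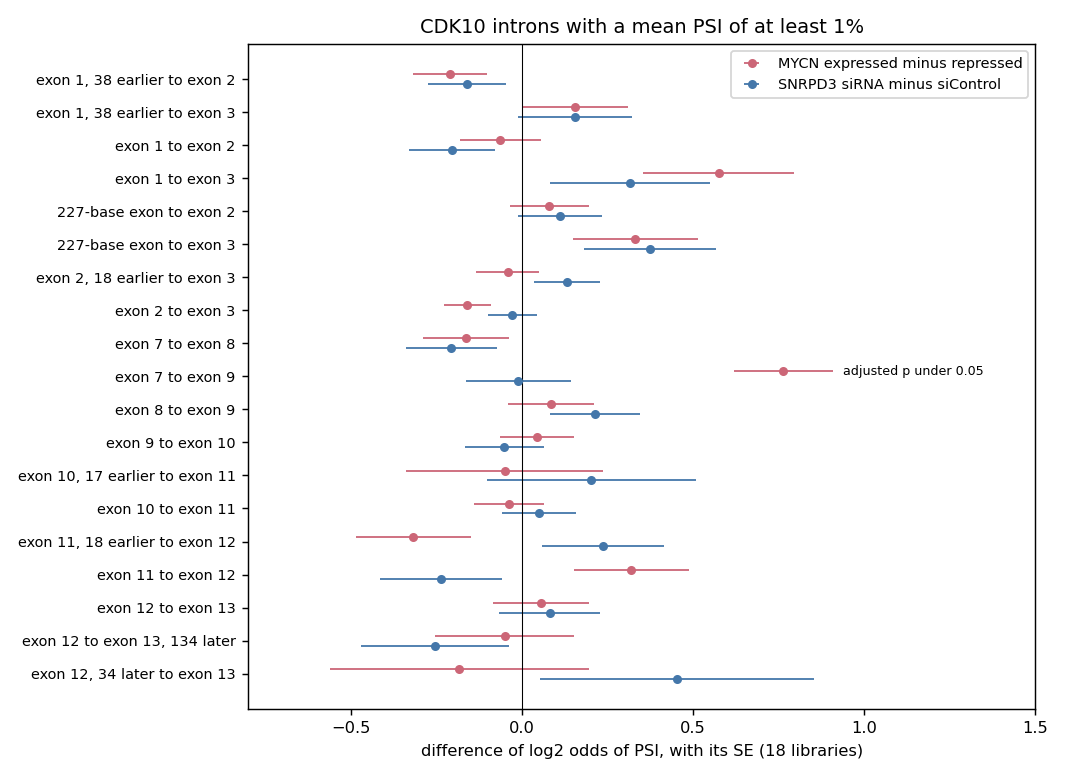
Differences of the log2 odds of PSI, with their SE, for the 19 tested CDK10 introns in order along the gene, for MYCN expressed minus repressed (red) and SNRPD3 siRNA minus siControl (blue) over 18 libraries. Exon 7 to exon 9 stands apart at 0.76 for MYCN and is at -0.01 for the knockdown, and it is the 1 difference with an adjusted p under 0.05.

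The levels of exon 7 to exon 9 were ordered MYCN+/SNRPD3+ (2.72% ± 0.981), MYCN+/SNRPD3- #1 (2.26% ± 0.539), MYCN+/SNRPD3- #2 (2.03% ± 0.286), MYCN-/SNRPD3- #2 (1.15% ± 0.678), MYCN-/SNRPD3- #1 (1.03% ± 0.20) and wildtype (0.806% ± 0.282), as mean and SD of 3 libraries. Neighbours in this order differed by less than the larger of their SDs, apart from the step between MYCN+/SNRPD3- #2 and MYCN-/SNRPD3- #2. As a description, the introns of other genes with PSI most alike over the 18 libraries were in PIGY (r = 0.925), a subunit of the enzyme that starts GPI anchors, in ENSG00000223969 (r = -0.90), in SGCE (r = 0.879), a sarcoglycan, in RPL17 (r = -0.878), a protein of the large ribosomal subunit, and in KIF21A (r = 0.863), a kinesin. They were picked from all tested introns for their likeness, and the points share the same 6 groups.

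Among related genes, the 19 of 20 other cyclin-dependent kinase genes with tested introns had 236 of them, and 1 was called in any of the 10 comparisons, an intron of CDK2 (chr12:55968949-55971043), the kinase of the G1 to S transition, which was higher in MYCN+/SNRPD3- #1 than in wildtype cells (0.99 on the log2 odds scale, limma adjusted p = 0.0468). In that comparison 0.278% of all tested introns were called, so 1 of 236 is near the background. CCNQ, the cyclin partner, had 9 tested introns, ETS2 had 2 and PKN2 had 12, and limma called 0 of them in each of the 10 comparisons. Of all tested introns, 0.0105% to 1.23% were called in these comparisons. At an unadjusted p under 0.05, CCNQ had at most 3 introns in a comparison (MYCN+/SNRPD3- #2 against wildtype, 9.19% of all). PKN2 had at most 2 (MYCN-/SNRPD3- #2 against wildtype, 4.69% of all) and ETS2 had 0 throughout (3.98% to 11.7% of all). The counts for CCNQ and PKN2 are the highest of 10 comparisons and rest on few introns, so they were not weighed against these shares.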

How the data were processed

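RNA was extracted from 18 SHEP.tet21n cultures, and libraries were made with a TruSeq Stranded mRNA kit. Per the labels, reads were aligned to hg38 with STAR (2.5.0a) and handled with SAMtools (1.3.1). The authors counted introns with leafcutter and deposited PSI as a fraction of each cluster in each library, with all 18 columns used. Their second table, which holds their own tests of clusters, was not used. MYCN's and SNRPD3's own introns are not analysed here. The result of 1 gene of the related gene list is not reported here.

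Introns were matched to GENCODE release 44 on hg38, whose splice sites gave GT and AG at all 27 CDK10 introns. The log2 odds of PSI, with an offset of 0.01 on both sides, entered limma (3.58.1, R 4.3.3) as 6 group means for the 152722 introns whose PSI averaged 0.01 to 0.99, with Benjamini-Hochberg adjustment within each comparison and a threshold of 0.05. Shares of a splicing choice were tested by exact two-sided permutation, with labels exchanged within MYCN status (7056 arrangements) or within siRNA (8000). Values per library are given for introns with a mean PSI from 5% to 95%, for the intron called and for the earlier donor of exon 11, added after its values were seen. The CDK10 introns, the shares and the gene lists were chosen with earlier results of these data known. The deposited table gives no read counts, so depth is unknown and no counting interval can be given. The labels number replicates 1 to 3, the study names them biological replicates, and p-values measure the spread between these libraries. Same-numbered libraries of different groups did not deviate together (mean correlation of deviations 0.00615 over 45 pairs, none above 0.1), so the numbers were not taken as pairs. Alternatives were another offset, PSI itself, other filters, a fit of only the groups compared, the replicate block, other eBayes options and leaving out each library.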

Additional observations from a re-analysis of the deposited data

How the results depend on the processing

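The call of the exon 7 to exon 9 intron for MYCN over all libraries held with either other offset, with no filter, with other eBayes options, with the replicate block and without each library in turn (1 CDK10 intron each time). It was lost on PSI itself (0 introns) and could not be made with mean PSI from 0.05 to 0.95, where that intron is filtered out (0 introns). In the other 9 comparisons limma called 0 CDK10 introns under every alternative, and for comparisons over all libraries a fit of only the groups compared is the main fit. A fit of only the groups compared called 358 to 769 introns over all genes in the 7 pairwise comparisons, against 16 to 425, and the cause was not tested.

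Of the 14 shares, the number with p under 0.05 for MYCN was 4 and ran from 2 to 4 as single libraries were left out. For the knockdown over all libraries, with MYCN repressed and with MYCN expressed it was 0 and ran from 0 to 1 in each. With labels exchanged only within a replicate block it was 2 for MYCN, 2 for the knockdown over all libraries, 1 with MYCN repressed and 1 with MYCN expressed. The replicate numbers pair no libraries by the check made, and the block changed no call of a CDK10 intron. Over all genes it raised the calls against wildtype from 425 to 733 in MYCN+/SNRPD3- #1 and from 168 to 286 in MYCN+/SNRPD3- #2. For MYCN over all libraries they rose from 1875 to 2154. In every other comparison the calls did not rise (37 to 25 for the knockdown over all libraries), and the cause was not tested. Without replicate 3 of every group, chosen after seeing the data, the number of shares with p under 0.05 was 4 for MYCN and 1 for the knockdown over all libraries, but 2 of the 4 were other shares. The earlier donor of exon 1 (p = 0.287) and skipping of exon 2 (p = 0.111) were lost, and the upstream acceptors of exon 10 and the later donors of exon 12 (p = 0.0278 each, exact permutation) were gained. What depth limits cannot be given, since the table holds no counts.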
